A study of Mus musculus with 2 samples.

Results

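The Slc22 organic ion transporters described here are 9 genes of the solute carrier family 22, namely Slc22a2, Slc22a5, Slc22a6, Slc22a8, Slc22a12, Slc22a19, Slc22a23, Slc22a27 and Slc22a30. They were chosen by name, and each matched 1 of the 32285 gene rows of the count tables, in which 25 genes carry an Slc22a symbol. Single-nucleus RNA sequencing was performed on whole mouse kidneys in 1 library of embryonic kidneys at E18.5 and 1 library of postnatal kidneys at P3, and nuclei of male and female animals were pooled in both. The E18.5 kidneys carried floxed alleles of Myc and Mycn (Mycf/f;Mycnf/f) without Cre on a mixed background, and the P3 kidneys were wild type on C57BL/6J. No library was replicated, so no test between the ages was possible, and age, genotype, background, mix of sexes and library cannot be told apart. After quality limits, 21270 nuclei remained at E18.5, with a median of 3132.5 unique molecular identifiers (UMIs) per nucleus, and 11765 nuclei remained at P3, with a median of 4534. The 9 genes held 21883 UMIs in the kept nuclei at E18.5 and 51343 at P3.

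As background, the proximal tubule reabsorbs most of the filtered load of the kidney and also secretes drugs, toxins and metabolites from blood into urine. Secretion of organic anions begins at the basolateral membrane, where OAT1 (Slc22a6) and OAT3 (Slc22a8) take up anions in exchange for dicarboxylates, and organic cations enter by OCT2 (Slc22a2). Other members act at the apical membrane: URAT1 (Slc22a12) reabsorbs urate, OAT5 (Slc22a19) exchanges organic anions, and OCTN2 (Slc22a5) recovers carnitine, which carries fatty acids into mitochondria. Slc22a27 and Slc22a30 belong to the anion branch that expanded in rodents, and Slc22a23 is an orphan transporter without an established substrate. The proximal tubule is divided along its length into S1, S2 and S3 segments, and transporters of this family are known to differ among them in the adult.

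Of the 9 genes, 6 lay on chromosome 19, and 5 of these 6 fell within a stretch of 955 kb that held 8 Slc22 genes in all. Positions are those of the GENCODE M21 annotation of GRCm38. Slc22a6 (ENSMUSG00000024650) is at chr19:8618039-8628299 on the plus strand, 6.20 kb beyond the end of Slc22a8 (ENSMUSG00000063796), which is at chr19:8591254-8611835 on the same strand. Slc22a19 (ENSMUSG00000024757) is at chr19:7673061-7711310, Slc22a27 (ENSMUSG00000067656) at chr19:7864388-7966027 and Slc22a30 (ENSMUSG00000052562) at chr19:8335371-8405111, all on the minus strand. Slc22a12 (ENSMUSG00000061742) is at chr19:6535845-6543032 on the minus strand, inside the span of Nrxn2, which runs on the opposite strand. Slc22a2 (ENSMUSG00000040966) is at chr17:12584132-12628488 on the plus strand. Slc22a5 (ENSMUSG00000018900) is at chr11:53864542-53891660 and Slc22a23 (ENSMUSG00000038267) at chr13:34179158-34345182, both on the minus strand. The genes span from 7.19 kb (Slc22a12) to 166 kb (Slc22a23).

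Several members have close relatives whose reads may be hard to separate. The longest annotated transcript of Slc22a30 matched that of Slc22a28 at 98.9% identity over 1485 bases, that of Slc22a27 matched Slc22a29 at 96.8% over 2088 bases, and that of Slc22a5 matched Slc22a21 at 90.2% over 3002 bases. Slc22a27 and Slc22a30 matched each other at 91.9% over 1319 bases. Values of Slc22a27, Slc22a30 and Slc22a5 are therefore uncertain where reads fall in shared sequence. The neighbors Slc22a6 and Slc22a8 aligned to each other over 410 bases, at 64.9% identity.

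Promoter sequence is shown for the members on which the results below turn. RefSeq promoters of GRCm38.p6 were found for all 9 genes, and the 250 bases before each start were searched on both strands for CAAAGTCC (the core of an HNF4 site), AGGTCA (part of a nuclear receptor site), TATAAA (the TATA box), CCAAT (named for its letters) and GGGCGG (the GC box), none of which contains another. The bases after the starts used for Slc22a5, Slc22a6, Slc22a8, Slc22a12 and Slc22a23 were not found early in a GENCODE transcript of the gene. A start that lies before the annotated one fails this search. The windows of Slc22a5, Slc22a6, Slc22a12 and Slc22a23 ended shortly before the annotated gene, and that of Slc22a8 lay within it. The windows of Slc22a2, Slc22a8 and Slc22a30 overlapped exons of the same gene, and that of Slc22a12 an exon of Nrxn2.

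The promoters of Slc22a5 and Slc22a23, the members with the lowest ratios of proximal tubule-like to other nuclei, differed from the others in base composition. They held 30 and 32 CG pairs and were 73.6% and 78.4% G or C, whereas the other 7 promoters held 0 to 6 CG pairs and were 25.6% to 55.2% G or C. The median of all promoters was 6 CG pairs and 52.4% G or C. GGGCGG or its complement was found in 3 of the 9 members and in 32.7% of all promoters, a like share. It occurred 3 times in Slc22a5, 4 times in Slc22a23 and 1 time in Slc22a12. Those of Slc22a5 (chr11:53891704-53891953, minus strand) and Slc22a23 (chr13:34345219-34345468, minus strand) are given with the GC box in capitals on either strand.
Slc22a5 promoter: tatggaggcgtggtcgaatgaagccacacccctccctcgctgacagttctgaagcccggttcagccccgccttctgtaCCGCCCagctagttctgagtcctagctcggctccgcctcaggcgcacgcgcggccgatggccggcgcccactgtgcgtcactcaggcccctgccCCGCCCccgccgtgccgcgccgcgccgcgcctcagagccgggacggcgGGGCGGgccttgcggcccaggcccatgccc
Slc22a23 promoter: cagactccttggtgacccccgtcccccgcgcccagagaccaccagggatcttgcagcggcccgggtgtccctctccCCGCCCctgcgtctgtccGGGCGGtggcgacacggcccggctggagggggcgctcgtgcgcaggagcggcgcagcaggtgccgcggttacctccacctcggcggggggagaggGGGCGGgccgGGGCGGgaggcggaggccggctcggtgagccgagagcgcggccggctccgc

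Of the other motifs listed, CCAAT was found in Slc22a2, Slc22a6 and Slc22a19 and in 33.8% of all promoters, AGGTCA in Slc22a27 alone and in 14.0% of all promoters, and CAAAGTCC and TATAAA in none of the 9. A match describes the letters in this window only.

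Nuclei were grouped by clustering without any Slc22 gene, and clusters were named from markers outside the family. Proximal tubule-like nuclei numbered 799 at E18.5 (3.76% of kept nuclei) and 1355 at P3 (11.5%). All 11 listed proximal tubule markers were at least 2-fold above the other nuclei at both ages, and their summed level was 10234 CPM against 939 elsewhere at E18.5 and 14071 against 2116 at P3. Unnamed clusters held 40.4% of nuclei at E18.5 and 39.0% at P3, among them clusters rich in called doublets and, with 13.9% and 13.4% of nuclei, a cluster of low UMIs raised in hemoglobin. The rules that left a cluster unnamed (under 3 raised markers, a second class close to the first, leading genes of another class, hemoglobin without Alas2, or more than 50% of its nuclei called doublets) were set with the clusters in view. Levels of a class are given as CPM, the UMIs of a gene summed over the class and scaled to a common total of UMIs, with exact 95% intervals that cover counting error only.

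Each of the 9 members was at least 2-fold higher in proximal tubule-like nuclei than in all other nuclei at both ages, with 10 CPM on at least 1 side. Of all genes tested in the same way, 10.7% passed this limit at E18.5 and 12.5% at P3. The ratios ranged from 3.28 (Slc22a5) to 22.3 (Slc22a27) at E18.5 and from 4.45 (Slc22a5) to 7.74 (Slc22a27) at P3. Proximal tubule-like nuclei held 4.12% of the UMIs of the E18.5 library and 13.2% of those of the P3 library. They held 12.4% (Slc22a5) to 49.0% (Slc22a27) of the members' UMIs at E18.5, and 40.3% (Slc22a5) to 54.0% (Slc22a27) at P3. With called doublets left out, the ratios ran from 3.45 (Slc22a5) to 36.3 (Slc22a27) at E18.5 and from 6.44 (Slc22a5) to 22.7 (Slc22a27) at P3, and the class held 16.8% to 68.1% and 61.2% to 84.7% of the members' UMIs, with the same members at either end. Without called doublets the class held 5.55% of all library UMIs at E18.5 and 19.7% at P3. The order of the ages turned with the doublets for Slc22a2, Slc22a6, Slc22a8 and Slc22a12. With them the ratios at E18.5 and P3 were 12.2 and 6.67 (Slc22a2), 7.29 and 6.91 (Slc22a6), 9.99 and 7.22 (Slc22a8) and 8.01 and 6.54 (Slc22a12). Without them they were 14.0 and 15.0, 7.73 and 13.3, 11.4 and 14.7, and 8.96 and 14.4, in the same order. Slc22a19, Slc22a27 and Slc22a30 stayed higher at E18.5, and Slc22a5 and Slc22a23 stayed higher at P3.

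**Figure D1:**
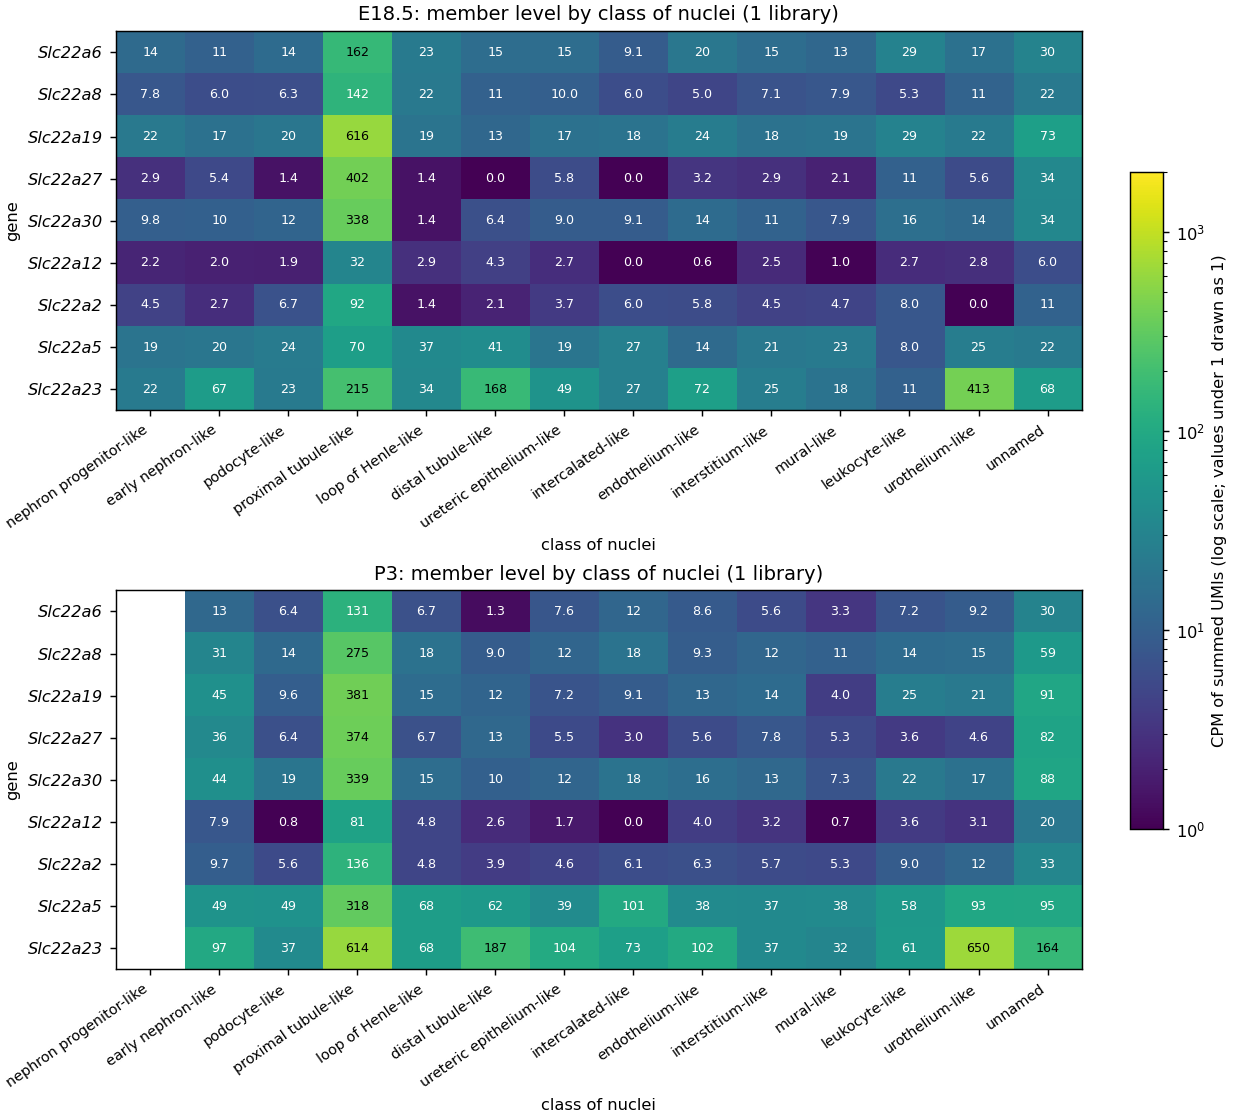
Level of each member (rows) in each class of nuclei (columns) at E18.5 (top) and P3 (bottom), as CPM of summed UMIs in 1 library per age, printed in each cell and colored on a log scale. The proximal tubule-like column holds the highest named-class value in 8 of 9 rows, and Slc22a23 is highest in urothelium-like nuclei. No cluster was named nephron progenitor-like at P3, and that column is blank.

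The organic anion transporters of the basolateral membrane were clear proximal tubule genes at both ages. Slc22a6 stood at 162 CPM (interval 148 to 176) in proximal tubule-like nuclei at E18.5 and at 131 CPM (124 to 139) at P3. The next class was leukocyte-like nuclei at E18.5, with 29.2 CPM, and early nephron-like nuclei at P3, with 13.0 CPM, and the median over the other classes was 9.27% of the proximal tubule value at E18.5 and 5.49% at P3. Slc22a8 stood at 142 CPM (129 to 155) at E18.5 and 275 CPM (264 to 286) at P3. Its next classes were loop of Henle-like nuclei at E18.5, with 21.6 CPM, and early nephron-like nuclei at P3, with 31.5 CPM. For Slc22a6 the proximal tubule was 5.54 times (3.07 to 11.2) the next class at E18.5 and 10.1 times (6.98 to 15.3) at P3. For Slc22a8 these ratios were 6.58 (3.94 to 11.8) and 8.74 (6.87 to 11.3).

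Slc22a19, Slc22a27 and Slc22a30, the other anion transporters of the chromosome 19 stretch, had the highest ratios of proximal tubule-like to other nuclei at E18.5, at 13.8, 22.3 and 15.6. Slc22a19, the apical anion exchanger, stood at 616 CPM (589 to 644) at E18.5 and 381 CPM (368 to 394) at P3. After each nucleus was thinned to 1000 UMIs, a UMI of Slc22a19 was found in 39.8% of proximal tubule-like nuclei and 1.77% of interstitium-like nuclei at E18.5, and in 26.8% and 1.49% at P3. Unthinned, the shares were 74.3% and 5.24% at E18.5, with median depths of 3853 and 2925 UMIs, and 63.5% and 5.93% at P3, with median depths of 6020.0 and 4054. Interstitium-like nuclei, which are not known to carry this transporter, serve as the comparison here, and the source of their UMIs was not tested. Slc22a27 stood at 402 CPM (380.1 to 424) at E18.5 and 374 CPM (361 to 386) at P3. At E18.5 the median of the other classes was 0.713% of its proximal tubule level, the lowest share among the members, and no UMI was found in distal tubule-like or intercalated-like nuclei, which allows up to 6.4 and 9.06 CPM. Slc22a30 stood at 338 CPM (318 to 358) at E18.5 and 339 CPM (327 to 351) at P3, with a median of 3.0% and 4.61% of that level in the other classes.

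The urate and the cation transporter were also highest in the proximal tubule. Slc22a12 stood at 32.0 CPM (26.1 to 38.8) at E18.5 from 102 UMIs and at 80.9 CPM (75.2 to 86.9) at P3 from 746 UMIs. None of its UMIs lay in intercalated-like nuclei at either age, which allows up to 9.06 CPM at E18.5 and 9.15 CPM at P3. Slc22a2 stood at 91.6 CPM (81.4 to 103) at E18.5 and 136 CPM (129 to 144) at P3. It was next highest in leukocyte-like nuclei at E18.5, at 7.97 CPM (1.64 to 23.3) from 3 UMIs. At P3 urothelium-like nuclei came next, at 12.2 CPM (5.28 to 24.1) from 8 UMIs. Counts this low do not settle the order of the classes below the proximal tubule. At E18.5 no Slc22a2 UMI was found in urothelium-like nuclei, where 3 counts, the limit that a count of 0 allows, would give 8.42 CPM.

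Slc22a5, the carnitine transporter, was the member spread most evenly over the kidney. It stood at 69.9 CPM (61.1 to 79.8) in proximal tubule-like nuclei at E18.5, 1.73 times (1.08 to 2.92) the level of the next class, distal tubule-like nuclei, which had 40.5 CPM. At P3 it stood at 318 CPM (307 to 330.0), and intercalated-like nuclei followed with 101 CPM and urothelium-like nuclei with 93.2 CPM. Across the other classes the median was 31.5% of the proximal tubule level at E18.5 and 15.4% at P3, the largest shares among the members at both ages.

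Slc22a23, the orphan member, was the exception to the order of classes. It stood at 413 CPM (349 to 485) in urothelium-like nuclei and 215 CPM (199 to 231) in proximal tubule-like nuclei at E18.5, a ratio of 1.92 (1.60 to 2.30). At P3 the values were 649.6 CPM (589 to 714) and 614 CPM (598 to 630.0), and the ratio of 1.06 (0.957 to 1.17) included 1. Distal tubule-like nuclei followed with 168 CPM at E18.5 and 187 CPM at P3. The urothelium-like class numbered 91 nuclei at E18.5 and 71 at P3, and all 6 of its markers were at least 2-fold above the other nuclei at both ages. After thinning to 1000 UMIs, 28.6% of urothelium-like nuclei had a UMI of Slc22a23 at E18.5 and 42.3% at P3, against 2.55% and 3.07% of interstitium-like nuclei. Unthinned, the shares were 57.1% and 7.26% at E18.5, with median depths of 3479 and 2925 UMIs, and 76.1% and 14.0% at P3, with median depths of 6261 and 4054. None of the other 8 members was highest in this class.

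RNA from outside a nucleus can add to low levels elsewhere, and its part in the values was not tested. The unnamed cluster of low UMIs raised in hemoglobin (2961 nuclei with a median of 1259 UMIs at E18.5, 1580 nuclei with a median of 971 at P3) held each member, at 2.96% (Slc22a27) to 26.3% (Slc22a6) of the proximal tubule level at E18.5 and 10.6% (Slc22a27) to 26.3% (Slc22a5) at P3. The level in all nuclei outside the class had a ratio of P3 to E18.5 of 2.33 to 3.35 for 7 members, 1.25 for Slc22a19 and 0.855 for Slc22a6. These values include called doublets, which carried 28.2% of all UMIs outside the class at E18.5 and 39.9% at P3. At P3, 1 unnamed cluster of 1614 nuclei, 88.8% of them called doublets, held 36.7% of all UMIs outside the class and 57.6% (Slc22a5) to 83.1% (Slc22a27) of those of the members. With called doublets left out, an alternative chosen after seeing the data, the ratios outside the class were 1.39 to 1.66 for 6 members, 2.44 for Slc22a5, 0.692 for Slc22a19, whose direction turned, and 0.470 for Slc22a6. Over the same ages the share of library UMIs in proximal tubule-like nuclei went from 4.12% to 13.2%.

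Some single nuclei carried several members at once. After thinning to 1000 UMIs, 78.6% of the class at E18.5 and 86.6% at P3 had at least 1 UMI of any member, and 19.5% and 29.0% had UMIs of at least 3 members. The mean number of members detected per nucleus was 1.52 at E18.5 and 1.91 at P3, and the highest was 5 and 7. For pairs of members, the nuclei with both were compared with the number given by multiplying the 2 shares. This ratio ran from 0.610 (Slc22a5 with Slc22a30) to 2.02 (Slc22a6 with Slc22a12, 6 nuclei) at E18.5. At P3 it ran from 0.755 (Slc22a19 with Slc22a23) to 1.54 (Slc22a6 with Slc22a8). Interstitium-like nuclei averaged 0.114 and 0.140 members, and urothelium-like nuclei 0.385 and 0.549.

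Within proximal tubule-like nuclei, the members went in different directions between E18.5 and P3. The class was 1 cluster at E18.5 and 3 clusters at P3. At E18.5 a cluster of 991 nuclei, with 5 of 11 proximal tubule and 4 of 8 early nephron markers raised, was left unnamed. Slc22a19 stood at 102 CPM in it. The P3 class included a cluster of 158 nuclei with Slc22a19 at 105, Slc22a6 at 7.45 and Slc22a8 at 9.57 CPM. In the P3 cluster of 986 nuclei they stood at 372, 164 and 357 CPM, in the same order. In that of 211 nuclei they stood at 598, 60.6 and 69.4 CPM. The make-up of the class may thus differ between the ages, and its part in the ratios was not tested. Of the 9, 3 were at least 2-fold higher at P3 (Slc22a5, Slc22a12 and Slc22a23) and 0 were at least 2-fold lower. Of 10665 genes with at least 10 CPM at either age, 5.13% were at least 2-fold higher at P3 and 11.6% at least 2-fold lower, and their median ratio was 0.947. The median ratio of the members was 1.49.

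Slc22a5 showed the largest ratio of the 9. It rose from 69.9 CPM to 318 CPM, a ratio of 4.55 (3.97 to 5.24). Outside the class its level went from 21.3 to 71.5 CPM, a ratio of 3.35 (3.16 to 3.55), and with called doublets left out from 20.4 to 49.9 CPM, a ratio of 2.44 (2.27 to 2.64). Slc22a23 rose from 215 to 614 CPM in the class, a ratio of 2.86 (2.64 to 3.10), with a ratio of 2.33 (2.24 to 2.42) outside it, or 1.66 (1.57 to 1.75) without called doublets. Slc22a12, the urate transporter, rose from 32.0 to 80.9 CPM, a ratio of 2.53 (2.05 to 3.14), which was 1.97 with a gate of 3 marker UMIs on thinned nuclei. Slc22a8 was just under the 2-fold limit, with a ratio of 1.94 (1.75 to 2.15) that passed it in 8 of 10 alternatives (1.94 to 2.88), and Slc22a2 had a ratio of 1.49 (1.31 to 1.70).

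Slc22a6, Slc22a19, Slc22a27 and Slc22a30 had ratios near or under 1 and within 2-fold. Slc22a30 had a ratio of 1.0 (0.936 to 1.08), with an interval on both sides of 1, and Slc22a27 one of 0.930 (0.872 to 0.992). Slc22a6 went from 162 to 131 CPM, a ratio of 0.811 (0.731 to 0.901), so the neighboring genes Slc22a6 and Slc22a8 had intervals on opposite sides of 1. In the largest P3 cluster of the class, of 986 nuclei, Slc22a6 stood at 164 CPM (154 to 174). Slc22a19 had the lowest ratio, 0.618 (0.585 to 0.653), which ran from 0.610 to 0.961 over 10 alternatives. Directions near 1 moved with the choice of nuclei: without quality limits the ratios were 1.20 for Slc22a6, 1.58 for Slc22a27 and 1.62 for Slc22a30, and Leiden communities gave 1.20 for Slc22a27 and 1.25 for Slc22a30. Without these limits proximal tubule-like nuclei made up 7.29% of the E18.5 library. Gene span moved with these ratios over all genes: the median ratio was 0.692 in the shortest quartile of tested genes, up to 13.1 kb, and 1.14 in the longest, from 68.7 kb. Slc22a6 and Slc22a12, in the shortest quartile, were above its median. In the longest, Slc22a27 and Slc22a30 were below the median and Slc22a23 was above it. The headers of the 2 files name different releases of the counting software, and whether intronic reads were counted the same way was not tested.

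**Figure D2:**
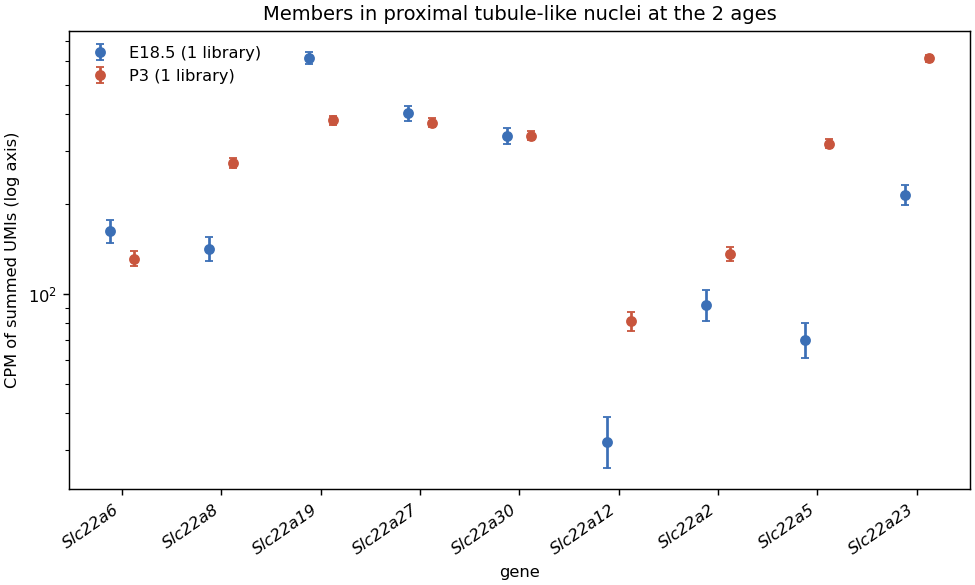
CPM of each member in proximal tubule-like nuclei (log axis) at E18.5 (blue) and P3 (red), with exact 95% Poisson intervals as bars and 1 library per age. Slc22a5, Slc22a12 and Slc22a23 are more than 2-fold higher at P3, and Slc22a19 is lower at P3 with intervals that do not overlap.

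Proximal tubule-like nuclei were clustered again, without the Slc22 genes, into 7 sub-clusters at E18.5 and 10 at P3. Each was placed by the summed CPM of S1 markers (Slc5a2, Slc7a7, Slc7a8, Gatm and Slc6a19) and of S3 markers (Slc7a13, Slc5a10, Slc5a1 and Atp11a), a grouping added after the data were seen. The S1 side held 666 nuclei at E18.5 and 968 at P3, and the S3 side held 133 and 320. A further 67 nuclei at P3, in 3 sub-clusters with under 500 CPM of both lists together, belonged to neither side.

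Between the S1 and S3 sides the members fell into contrasting patterns. At E18.5, 2 members were at least 2-fold higher on the S1 side and 1 at least 2-fold lower, and at P3, 4 were higher and 0 lower. Over all genes tested, 7.12% were higher on the S1 side and 5.4% lower at E18.5, and 4.98% higher and 7.72% lower at P3. The sub-clusters were built from other genes of the same nuclei, so these ratios describe the sides and are no test of them.

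Slc22a8 and Slc22a6, the basolateral anion pair, were lower on the S3 side at both ages in this division. Slc22a8 stood at 169 CPM on the S1 side and 24.9 on the S3 side at E18.5, a ratio of 6.80 (4.08 to 12.3), and at 359 and 59.6 CPM at P3, a ratio of 6.03 (5.06 to 7.24). For Slc22a6 the ratio at E18.5 was 3.65 (2.54 to 5.44), and that at P3 was 3.30 (2.71 to 4.05). In the P3 sub-clusters of the S3 side with 110 and 48 nuclei, low in mature markers, Slc22a6 stood at 2.89 and 2.52 CPM. Slc22a8 stood there at 13.0 and 10.1 CPM. Of the 110 Slc22a6 UMIs of the S3 side at P3, these sub-clusters held 2 and 1. The rest lay in the remaining S3 sub-cluster, of 162 nuclei, with 3464 CPM of mature markers. In the P3 sub-clusters of 110 and 48 nuclei the mature markers summed to 665 and 576 CPM, against 5586 to 7107 CPM on the S1 side. Of the 7 mature markers, Slc5a2 and Slc6a19 are also S1 markers, so the mature sums are partly tied to the sides. At E18.5, an S3 sub-cluster of 48 nuclei with 3200 CPM of mature markers held Slc22a6 at 113 and Slc22a8 at 54.0 CPM. An S1 sub-cluster of 165 nuclei with 3108 CPM of them held 107 and 136 CPM. Segment and maturity are not separated by this division. The E18.5 ratios between the sides rest on 1 sub-cluster of 180 nuclei in which the S1 markers held 51.0% of the summed marker CPM. With it on the S3 side, an alternative chosen after seeing the data, the ratio was 1.15 (0.964 to 1.38) for Slc22a6 and 2.19 (1.77 to 2.74) for Slc22a8. In single sub-clusters at P3, Slc22a6 ran from 2.52 CPM in a sub-cluster of the S3 side led by the cell division genes Ect2 and Top2a (1 UMI) to 240.2 CPM in a sub-cluster of the S1 side led by Cyp4a14, a fatty acid hydroxylase. That last sub-cluster, of 225 nuclei, also had the highest levels of Slc22a5, Slc22a8, Slc22a12 and Slc22a19 among the sub-clusters on either side at P3.

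Slc22a27 ran the other way. It stood at 325 CPM on the S1 side and 729 on the S3 side at E18.5, 2.24 times (1.99 to 2.52) as high on the S3 side, and at 312 and 614 CPM at P3, 1.97 times (1.84 to 2.11) as high. Slc22a30 had a ratio of the S1 to the S3 side of 1.01 (0.866 to 1.18) at E18.5, and was 1.74 times (1.61 to 1.87) as high on the S3 side at P3. With that sub-cluster on the S3 side, Slc22a30 was 1.53 times (1.35 to 1.72) as high on the S3 side at E18.5, and Slc22a27 3.26 times (2.89 to 3.68). Slc22a19 was 1.33 times as high on the S3 side at both ages, with intervals of 1.20 to 1.48 and 1.24 to 1.43. This ratio averages over a wide spread: at P3 its lowest and highest sub-clusters, at 100 and 720 CPM, both lay on the S1 side. Slc22a2 had ratios of the S1 to the S3 side of 1.13 (0.831 to 1.56) and 1.07 (0.942 to 1.23), and Slc22a12 of 0.849 (0.524 to 1.43) and 0.834 (0.710 to 0.982).

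Slc22a23 and Slc22a5 leaned to the S1 side more at P3 than at E18.5. The ratio of the S1 to the S3 side for Slc22a23 was 1.56 (1.25 to 1.97) at E18.5, or 2.08 (1.75 to 2.48) with that sub-cluster moved, and 3.79 (3.44 to 4.19) at P3, when an S1 sub-cluster with Gldc and Slc5a2 among its leading genes reached 923 CPM. A sub-cluster of 27 nuclei on neither side had 969 CPM. For Slc22a5 the ratio at E18.5 was 1.10 (0.776 to 1.60), and that at P3 was 2.05 (1.84 to 2.28). At E18.5 Slc22a5 varied little among the 7 sub-clusters, from 60.3 to 80.6 CPM, and at P3 it ran from 99.8 to 415 CPM over the 7 sub-clusters on either side.

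**Figure D3:**
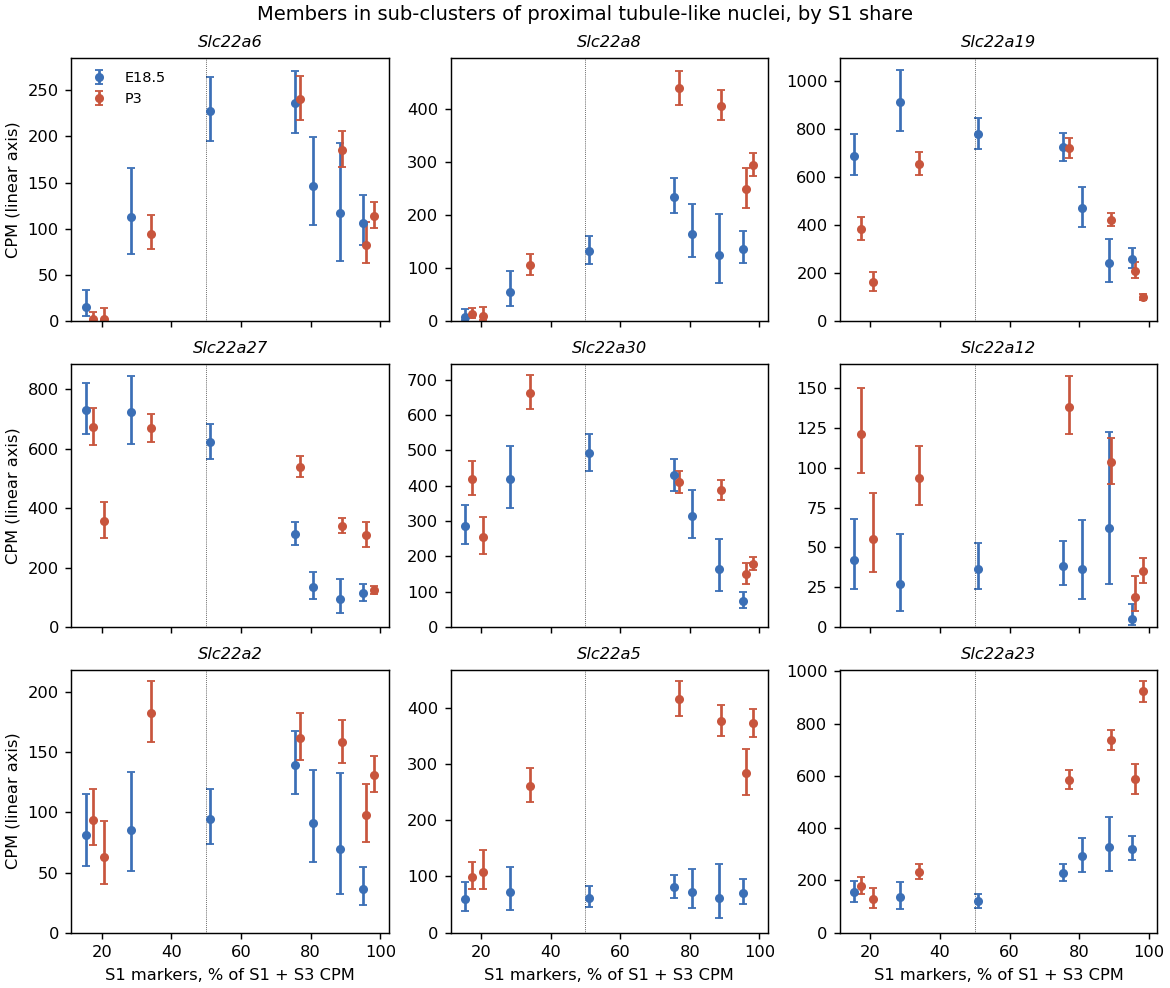
CPM of each member (linear axis, exact 95% Poisson intervals) in the sub-clusters of proximal tubule-like nuclei that lie on either side, at E18.5 (blue) and P3 (red), against the S1 markers' share of the summed S1 and S3 marker CPM. Slc22a6 and Slc22a8 are lowest in a sub-cluster of the S3 side at each age, whereas Slc22a27 is highest in the sub-cluster with the lowest S1 share.

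The ratio between the ages was then taken within each side. The S1 and S3 lists that set the sides also moved between the ages: 4 of 5 S1 markers were at least 2-fold higher at P3, and of 4 S3 markers 1 was higher and 2 were lower. Sides were set at each age by these lists, so a side may not hold matching nuclei at the 2 ages, which was not tested. On the S1 side, 4 members were at least 2-fold higher at P3, against 5.55% of all genes tested there, and on the S3 side 3 were, against 8.81%. No member was at least 2-fold lower on either side. Slc22a12 had ratios of 2.58 (2.03 to 3.30) on the S1 side and 2.62 (1.69 to 4.28) on the S3 side, and Slc22a8 had 2.12 (1.92 to 2.36) and 2.40 (1.40 to 4.40). Slc22a19 was at 0.627 on the S1 side and 0.626 on the S3 side. Slc22a5 had ratios of 5.27 (4.53 to 6.15) on the S1 side and 2.84 (2.04 to 4.05) on the S3 side, and Slc22a23 had 3.25 (2.98 to 3.54) and 1.34 (1.06 to 1.70). The intervals of the sides did not overlap for either gene, and the difference between the sides was not tested. Slc22a30 had a ratio of 0.875 (0.808 to 0.949) on the S1 side and 1.53 (1.32 to 1.79) on the S3 side. With the sub-cluster of 180 nuclei moved to the S3 side these became 1.07 (0.972 to 1.18) and 1.22 (1.10 to 1.35). The same move gave ratios on the S3 side of 0.334 (0.262 to 0.424) for Slc22a6 and 0.709 (0.548 to 0.920) for Slc22a8, so the ratios of these genes on that side depend on where the sub-cluster is placed. On the S1 side it took Slc22a8 to 1.95 (1.74 to 2.19), under 2-fold. Slc22a27 went on the S1 side from 0.958 (0.883 to 1.04) to 1.51 (1.36 to 1.69). On the S3 side Slc22a27 went from 0.842 (0.756 to 0.940) to 0.916 (0.842 to 0.998).

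**Figure D4:**
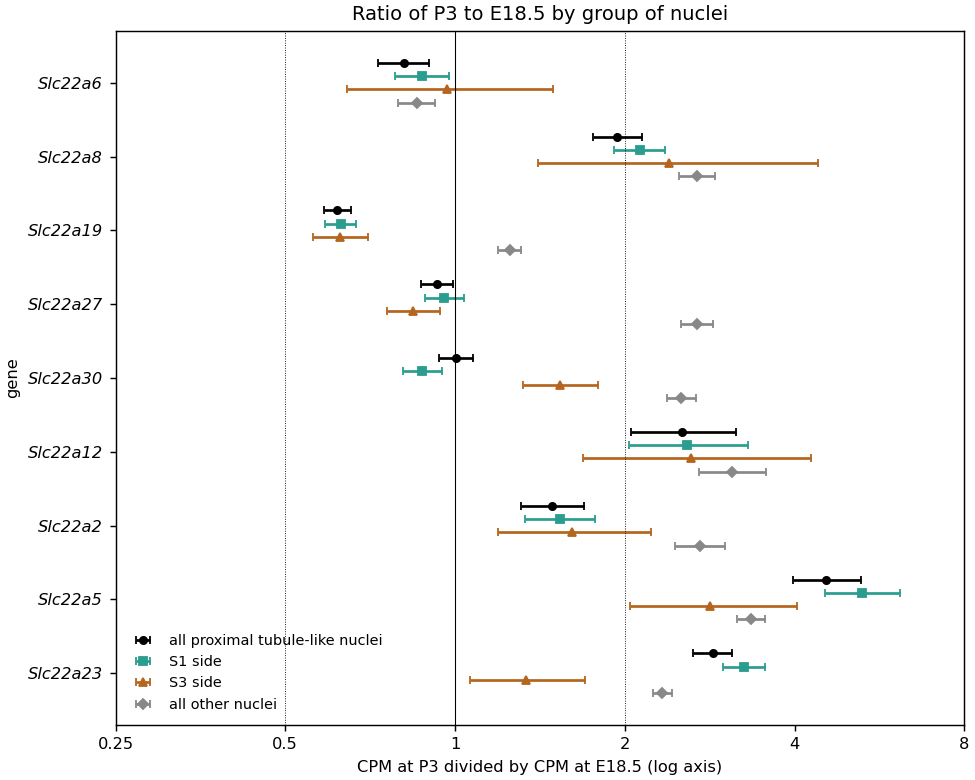
CPM at P3 divided by CPM at E18.5 (log axis) for each member in all proximal tubule-like nuclei (black circles), on the S1 side (green squares), on the S3 side (brown triangles) and in all other nuclei, called doublets included (gray diamonds), with exact conditional 95% intervals and 1 library per age. Slc22a5, Slc22a12 and Slc22a23 lie above 2 in all proximal tubule-like nuclei, and Slc22a30 lies on opposite sides of 1 on the S1 and S3 sides.

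The functional partners of the members were taken from 5 lists of 28 genes, 23 of which had at least 10 CPM at either age. Of these 23, 6 were at least 2-fold higher at P3 and 0 lower, with a median ratio of 1.28 against 0.947 over all genes tested. The carnitine list had the highest median, with 3 of 6 tested genes higher and a median of 2.11. Slc25a20, the carnitine-acylcarnitine carrier of mitochondria, rose from 18.2 to 68.6 CPM, a ratio of 3.77 (2.88 to 5.02). Aldh9a1, an enzyme of carnitine synthesis, had a ratio of 2.64 (2.11 to 3.33), and Cpt1a, which loads fatty acids onto carnitine, one of 2.48 (2.14 to 2.90). These genes were also higher at P3 in all other nuclei, called doublets included. There Slc25a20 went from 14.7 to 28.7 CPM, Aldh9a1 from 15.4 to 24.0 and Cpt1a from 25.9 to 80.8. The other 3 tested genes had ratios from 0.963 to 1.73, and Bbox1 was under 10 CPM at both ages.

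Of 8 tested organic anion partners, 2 were higher. Slc13a3, the basolateral dicarboxylate carrier whose substrates are exchanged by OAT1 and OAT3, rose from 66.5 to 229 CPM, a ratio of 3.45 (2.99 to 3.99), and Abcc4, an efflux pump, had a ratio of 2.74 (2.14 to 3.57). In all other nuclei, called doublets included, Slc13a3 went from 4.60 to 29.5 CPM. Abcc4 went there from 47.6 to 114 CPM, above its level in the class of 22.0 and 60.2 CPM. Slc13a3 was also higher on the S1 side, as were Slc22a6 and Slc22a8, with 80.5 against 6.63 CPM at E18.5 and 285 against 93.9 CPM at P3. Slco1a6, named after its values were seen, was 6.27 times as high on the S3 side at E18.5 and 6.43 times at P3. The cation exporter Slc47a1, which follows OCT2 in cation secretion, had a ratio of 0.821 (0.781 to 0.863), and the other 3 cation partners, Slc47a2, Abcb1a and Abcb1b, were under 10 CPM.

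Among the urate and scaffold partners, 1 of 4 was higher, the urate carrier Slc2a9, with a ratio of 2.14 (1.27 to 3.81) from 17 and 105 UMIs. Slc2a9 stood at 5.33 and 11.4 CPM in the class, and at 7.57 and 14.9 CPM in all other nuclei. The other 3 partners of this list, Slc5a8 and the scaffold genes Pdzk1 and Slc9a3r1, had age ratios from 0.698 to 1.18 in the class. The transcription factors Hnf4a and Hnf4g, which are known to act in the proximal tubule, had ratios of 1.09 and 1.11, both under 2-fold. Of 7 markers of the mature proximal tubule, 4 were at least 2-fold higher at P3 and 1 lower, and of 5 tested markers of the immature nephron, 0 passed in either direction. Among those 4, Slc5a2 and Slc6a19 were also counted with the S1 markers.

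**Figure D5:**
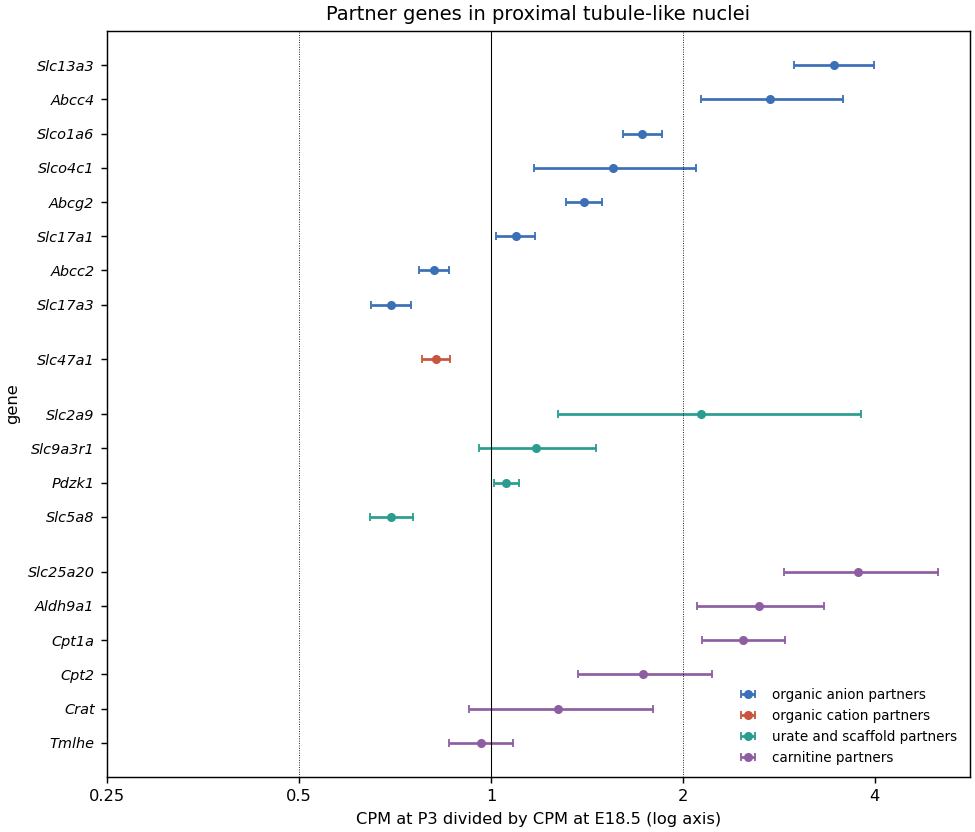
CPM at P3 divided by CPM at E18.5 (log axis) in proximal tubule-like nuclei for the tested genes of the organic anion, organic cation, urate and scaffold, and carnitine lists, colored by list, with exact conditional 95% intervals and 1 library per age. Dotted lines mark 2-fold; Slc13a3, Abcc4, Slc2a9, Slc25a20, Aldh9a1 and Cpt1a lie above it and none lies below it on the left.

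Of the 16 other Slc22 genes, 11 reached 10 CPM in a named class at 1 age or more. Of 10 tested between the ages in proximal tubule-like nuclei, 3 were at least 2-fold higher at P3 and 1 lower. Slc22a28 stood at 182 CPM in proximal tubule-like nuclei at E18.5 and 204 at P3, and Slc22a29 at 201 and 407. Slc22a4, which encodes OCTN1, rose by a ratio of 3.13 (2.32 to 4.29), from 15.4 to 48.1 CPM, and Slc22a18 by 4.36 (3.43 to 5.64). Slc22a22, a prostaglandin-transporting member, went from 106 to 22.1 CPM, a ratio of 0.209 (0.175 to 0.249). Slc22a13 and Slc22a14 were also highest in the proximal tubule at both ages, at 53.0 and 54.9 CPM at E18.5. Slc22a15 was highest in endothelium-like nuclei, at 38.3 CPM at E18.5 and 60.5 at P3, and Slc22a17 in nephron progenitor-like nuclei at E18.5, at 76.7 CPM. Slc22a21, the close relative of Slc22a5, was highest in interstitium-like nuclei at E18.5, at 29.1 CPM, and in urothelium-like nuclei at P3, at 44.3 CPM, and had an age ratio of 1.17 (0.906 to 1.52) in the proximal tubule.

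The genes whose levels ran most like those of each member were taken from 15623 genes over the 60 clusters of both libraries, which share libraries and depth, so that the correlations are a description. Slc22a27 and Slc22a30 were each other's closest gene, with a Pearson r of 0.959 on the log2 scale, and Slc22a28 came next for Slc22a30 at 0.958. Near-identical sequence links Slc22a30 and Slc22a28, and Slc22a27 and Slc22a30 share 91.9% identity over 1319 bases. The part of shared reads in these correlations was not tested. Slc22a8 ran closest to Slc34a1, the phosphate carrier (r = 0.930), and to the sulfate carrier Slc13a1 (0.928). Slc22a19 ran closest to Slc17a3, an apical carrier of organic anions and urate (0.947), then to Hnf4a (0.944). Slc22a2 ran closest to Slc13a2 (0.946), Slc22a12 to Dmgdh (0.944), Slc22a5 to Cyp24a1 (0.893) and Slc22a6 to Ndrg1 (0.883). Slc22a23 had no gene above 0.814, the value for Por.

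Adult levels of several members are known to differ by sex, and the pooled libraries allowed a rough sort of the proximal tubule-like class. At E18.5, 556 nuclei had UMIs of Xist and none of 4 genes of the Y chromosome, 85 had the reverse and 129 had both, and at P3 the numbers were 581, 388 and 346. By this rough sort the mix of sexes differed between the libraries, and its part in the age ratios was not tested. Over all genes with at least 50 CPM, 35.5% differed by more than 1.25-fold between the 2 sorts at E18.5 and 6.74% at P3. At E18.5, Slc22a27 was 1.47 times (1.20 to 1.81) as high in the nuclei with Xist only, whereas at P3 the ratio was 0.945 (0.869 to 1.03). Also at E18.5, Slc22a8 had a ratio of 0.745 (0.566 to 0.995) and Slc22a23 one of 0.782 (0.626 to 0.986). At P3, Slc22a30 had a ratio of 0.833 (0.764 to 0.909) and Slc22a23 one of 1.08 (1.01 to 1.15), and the intervals of the remaining ratios at both ages included 1. No member differed by 2-fold at either age.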

How the data were processed

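The authors deposited, for each library, a 10x matrix of UMI counts per gene and nucleus, with no normalization. The submitters' notes name Cell Ranger 5.0.1 and mm10 for both libraries, whereas the headers of the files name release 7.0.0 (E18.5) and 5.0.1 (P3), and the counting of introns is not given in the sources used here. The labels give C57BL/6J for P3, and the study's methods a mixed background.

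Nuclei more than 3 median absolute deviations under the median log UMIs or genes, or high in mitochondrial share, were removed, which kept 98.5% of 21600 barcodes at E18.5 and 96.3% of 12216 at P3. The libraries shared 69 barcodes. Scrublet (scanpy 1.11.5) called 16.6% and 17.4% of nuclei doublets, which were kept. Nuclei were clustered with scran 1.30.0 (R 4.3.3) on 2000 variable genes and 50 components, with 10 neighbors and Walktrap, leaving out 58 genes that included all Slc22a genes and the partner lists. Clusters were named from marker lists, and UMIs were summed per class. A gene was called at 2-fold or more with 10 CPM on either side. Intervals are exact (Poisson for levels, conditional binomial for ratios) and cover counting error only. Scripts were tested on simulated data. Named genes were the members, other Slc22 genes of at least 10 CPM in a class, partner genes past 2-fold and the 3 genes correlated best with each member. Alternatives changed doublets, clustering, neighbors, quality limits, class definition, averaging, scaling, fold and floor. The members and lists were chosen with earlier results of these data known. Some items of the lists and 1 motif are not reported here.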

Additional observations from a re-analysis of the deposited data

Results flagged for a closer look

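Slc22a30 was picked out because its ratios of P3 to E18.5 lay on opposite sides of 1 within proximal tubule-like nuclei. The ratio was 0.875 (0.808 to 0.949) on the S1 side and 1.53 (1.32 to 1.79) on the S3 side. With 1 library per age the difference was not tested. With the sub-cluster of 180 nuclei at 51.0% S1 placed on the S3 side, the ratios were 1.07 and 1.22, both above 1. With that placement Slc22a27 lay on opposite sides of 1, at 1.51 (1.36 to 1.69) on the S1 side and 0.916 (0.842 to 0.998) on the S3 side. Groups of 4 or more samples, which the search for single outlying samples needs, were not present.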

How the results depend on the processing

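No paired analysis was possible because each age had 1 library. All 9 members were counted as higher in proximal tubule-like than in other nuclei at both ages under each alternative run for that count. The number at least 2-fold higher at P3 was 3 and became 5 without quality limits. Of 10 alternatives with a ratio for each member, Slc22a8 was at least 2-fold higher in 8, among them Leiden communities (2.24), 20 neighbors (2.08) and division by the median ratio (2.05), Slc22a12 in 9, all but the marker gate (1.97), and Slc22a23 in 9. The number lower was 0 and became 1 at a 1.5-fold limit. Slc22a5 kept a ratio of P3 to E18.5 of 2.84 to 6.61 over the alternatives, and Slc22a23 ranged from 1.34 (the S3 side alone) to 3.90. With a floor of 1 CPM, 2 partner genes were at least 2-fold lower. Proximal tubule-like nuclei, 3.76% of the E18.5 library, made up 4.39% with called doublets left out, 5.27% with Leiden communities, 4.19% with 20 neighbors, 7.29% without quality limits and 11.5% with a gate of 3 marker UMIs on thinned nuclei. At P3, the share of 11.5% was 13.4% with doublets left out, 10.9% without quality limits and 26.2% with the gate. The causes were not tested. The S1 and S3 comparisons, the scaling by gene span and the moved sub-cluster were chosen after seeing the data. Counting limits Slc22a12 most, with 102 UMIs in the class at E18.5.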
